A study of Mus musculus with 9 samples.

Results

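Albumin and 4 further plasma carrier proteins of the liver were followed across mouse livers that differed in the presence of a colon cancer xenograft and in drug treatment. The gene list held 7 members: Alb, Ttr, Rbp4, Afm, Ambp, Gc and Trf. A member was measured by probe sets that the platform annotation gives to that gene alone, and 5 genes had such probe sets, 8 in all, among 22626 probe sets and 12393 genes with a probe set of their own. Gc, the vitamin D binding protein, had 0 such probe sets, and the only probe set of Trf, transferrin, was shared with another gene, so neither was analysed here. All 8 probe sets passed the filter on dim values.

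These proteins are made by hepatocytes and secreted into plasma. Albumin carries fatty acids, bilirubin, hormones and many drugs. Transthyretin (Ttr) carries thyroid hormone and holds retinol-binding protein (Rbp4), which brings vitamin A from liver stores to the tissues. Afamin (Afm), a relative of albumin, carries vitamin E and Wnt proteins, and Ambp encodes a precursor that is cleaved into alpha-1-microglobulin, a heme scavenger, and bikunin, the light chain of the inter-alpha-trypsin inhibitors. Several of them, albumin and transthyretin foremost, are classed as negative acute phase proteins, whose synthesis falls in inflammation.

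Liver RNA was measured on 9 Affymetrix mouse arrays in 3 groups of 3. NT-Co livers came from mice without tumour on vehicle. T-Co livers came from vehicle-treated mice carrying the human colon cancer TK-4, and T-TSU livers from TK-4 carriers given TSU68, an oral inhibitor of receptor tyrosine kinases. The tumour was placed in the cecal wall of male BALB/c nu/nu mice, which lack a thymus, at 6 weeks of age. TSU68 at 400 mg/kg per day, in 2 doses by mouth, or vehicle began on day 7 and lasted 1 week. The sources used here do not state strain, sex and age for the NT-Co mice on their own, nor a sham operation, the hour of collection or the feeding state. The labels number the samples without saying that each is a separate animal, so the p-values reflect only how far these samples scatter, which may be technical.

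The arrays were alike in overall level, with median intensities of 107 to 119. T-Co replicate 13 stood apart from the others on the second principal component (48.1 against -29.9 to 17.5). The ratio of 3' to 5' beta-actin signal, a sign of RNA quality, was 2.72 ± 0.44 (SD, n = 3) in NT-Co, against 1.98 ± 0.11 in T-Co and 2.02 ± 0.20 with TSU68; its part in the results was not tested. Hepatocyte markers were abundant in every array, and 9 of the 12 listed were measured. Their summed intensity ranged from 240896 to 260703 over the NT-Co arrays, from 275910 to 291192 over T-Co and from 256193 to 263009 over T-TSU. In bulk tissue, fewer cells of a type and less RNA per cell cannot be told apart.

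The carrier genes sat at the top of the intensity scale. Alb held rank 8 to 15 among all probe sets of an array and reached 72.8% to 89.4% of the array's highest value. The brightest Ttr probe set held rank 8 to 19, Rbp4 rank 37 to 55 and Ambp rank 48 to 77, while the Afm probe sets lay lower, at ranks 242 to 369 and 503 to 745. An array signal flattens as a probe nears saturation, so differences of such transcripts can be understated. The deposited table carries no saturation flag, and how far Alb and Ttr were affected was not tested. The array maxima, 43245 to 53321, all belonged to Apoa1.

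No carrier gene passed the test in any comparison. In T-Co against NT-Co, 0 of the 8 probe sets passed limma's test at a Benjamini-Hochberg adjusted p of 0.05, where 6.54% of the 15838 probe sets tested passed (4.16% higher and 2.38% lower). In T-TSU against T-Co, 0 of 8 passed beside 0.0505% of all (0.0379% higher, 0.0126% lower). In T-TSU against NT-Co, 0 of 8 passed beside 3.85% (2.49% higher, 1.36% lower). The moderated F test over the 3 groups also called 0 of 8, against 5.7% of all, with a lowest adjusted p of 0.189 for Ambp. At an unadjusted p of 0.05 the counts were 1, 3 and 0 of 8. The 95% intervals leave room for changes of up to 1.46-fold, 1.40-fold and 1.43-fold in the 3 comparisons, read from the widest bound among the 8 probe sets. Larger changes of these signals lie outside the intervals, but smaller ones were not resolved with 3 arrays a group.

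**Figure D1:**
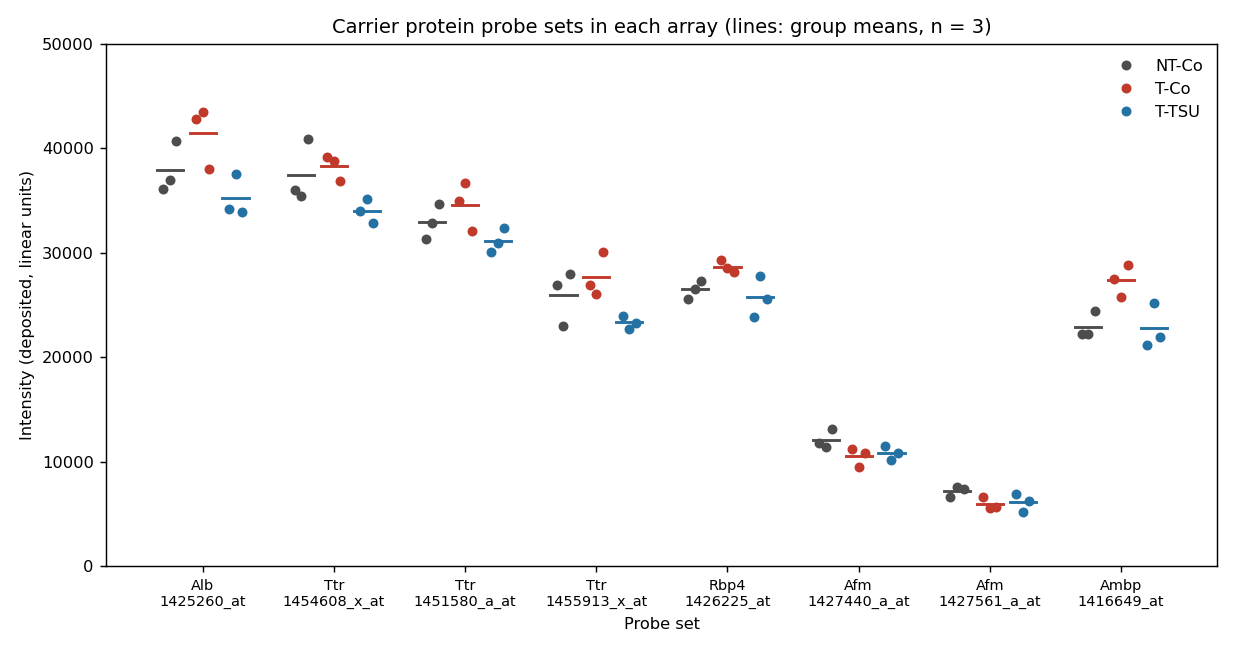
Deposited linear intensity (vertical axis) of each carrier protein probe set (horizontal axis) in the 3 arrays of NT-Co (grey), T-Co (red) and T-TSU (blue), with lines at the group means. The T-Co mean is the highest of the 3 for Alb, Ttr, Rbp4 and Ambp and the lowest for both Afm probe sets, and the spans of the groups lie close together.

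Alb, the principal plasma protein gene, read 36136, 36958 and 40756.5 in NT-Co replicates 8, 10 and 11. It read 42860, 43462 and 38015 in T-Co replicates 9, 10 and 13, and 34233, 37526 and 33921.5 in T-TSU replicates 2, 12 and 14. The T-Co span overlapped that of NT-Co through replicate 13, and all T-TSU arrays lay below all T-Co arrays. The log2 difference was 0.13 ± 0.09 (SE) for T-Co against NT-Co (95% interval -0.08 to 0.33; limma adjusted p = 0.483). For T-TSU against T-Co it was -0.23 ± 0.09 (-0.44 to -0.03; adjusted p = 0.408). The T-TSU arrays differed from NT-Co by -0.11 ± 0.09 (adjusted p = 0.649). The interval of the drug comparison lies below 0, but the p of 0.0287 did not pass once adjusted over the whole table.

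The albumin promoter is the classic site at which the liver factors DBP, TEF and HLF were studied, and DBP is named after its D site. The 250 bases before the start of 3 members are shown from RefSeq on GRCm38.p6, 5' to 3' on the strand of the gene. Alb is shown for its D boxes, Afm as the family relative on the same chromosome whose values moved apart from those of Alb, and Ambp as the member with the largest difference in the drug comparison. Capitals mark matches, on either strand, to TTNTGTAA (the D box, bound by DBP, TEF, HLF and the repressor NFIL3), GTTAAT (part of the HNF1 recognition sequence) and CCAAT (the NF-Y box).
Alb chr5:90460620-90460869 plus strand: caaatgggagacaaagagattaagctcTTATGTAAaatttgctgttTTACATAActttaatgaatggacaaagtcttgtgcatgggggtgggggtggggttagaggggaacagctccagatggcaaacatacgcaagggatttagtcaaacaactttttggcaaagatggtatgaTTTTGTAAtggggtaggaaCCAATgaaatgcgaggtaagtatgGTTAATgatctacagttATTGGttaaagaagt
Afm chr5:90518699-90518948 plus strand: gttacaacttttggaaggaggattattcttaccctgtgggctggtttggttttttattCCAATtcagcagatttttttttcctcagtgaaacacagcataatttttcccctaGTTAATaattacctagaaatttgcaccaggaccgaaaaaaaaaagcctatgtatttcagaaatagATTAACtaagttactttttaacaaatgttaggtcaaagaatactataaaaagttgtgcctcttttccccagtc
Ambp chr4:63154173-63154422 minus strand: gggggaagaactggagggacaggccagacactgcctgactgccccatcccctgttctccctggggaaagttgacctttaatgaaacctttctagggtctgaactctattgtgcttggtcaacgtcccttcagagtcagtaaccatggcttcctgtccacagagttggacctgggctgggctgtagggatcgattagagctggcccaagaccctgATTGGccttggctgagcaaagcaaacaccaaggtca

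The Alb window held 3 D box matches, at 223, 204 and 75 bases before the start, along with GTTAAT at 32 bases and CCAAT boxes at 56 and 15 bases. Afm held 2 matches to GTTAAT, 1 CCAAT box and no D box, and Ambp held 1 CCAAT box only. Among 32851 windows of this length, 3.51% held a D box, 6.43% held GTTAAT and 33.8% held CCAAT. Only 3 windows held 3 or more D boxes. The motifs were chosen after the Alb sequence had been read, and a match is a description of the letters, not a bound site. Alb and Afm lie in the albumin gene cluster of chromosome 5, where Afp, alpha-fetoprotein, is the next gene to both. Afp, the fetal member of the family, had 5 probe sets, none of which passed the filter, with a highest mean of 31.1 and a highest single value of 71.1.

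Ttr was measured by 3 probe sets, which shared the order T-Co, NT-Co, T-TSU of group means. The brightest, 1454608_x_at, read 36026, 35481 and 40874 in NT-Co, 39141, 38787 and 36900.5 in the T-Co arrays, and 34007, 35204.5 and 32842.5 in T-TSU. Every T-TSU array lay below every array of both other groups. The differences were 0.03 ± 0.09 for T-Co against NT-Co (limma adjusted p = 0.873), -0.17 ± 0.09 for T-TSU against T-Co (0.542) and -0.14 ± 0.09 for T-TSU against NT-Co (0.501). The probe set 1451580_a_at read 31312, 32909 and 34720 in NT-Co, 34957, 36652 and 32096 in the T-Co arrays, and 30117, 30959 and 32386 in T-TSU. Its groups overlapped in all comparisons, with log2 differences of 0.07, -0.15 and -0.08. The dimmest of the 3, 1455913_x_at, read 26888, 23042 and 27968 in NT-Co, 26939, 26034 and 30075 in the T-Co arrays, and 23954, 22752 and 23341 in T-TSU. Its T-TSU arrays lay below all T-Co arrays (log2 difference -0.24 ± 0.10, interval -0.46 to -0.02, adjusted p = 0.422) and overlapped NT-Co.

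Rbp4, the partner that transthyretin holds in plasma, read 25623.5, 26587 and 27326.5 in NT-Co. It read 29318, 28525 and 28186.5 in the T-Co arrays, and 23842, 27834 and 25603 in T-TSU. The T-Co arrays lay above those of both other groups, while NT-Co and T-TSU overlapped. The margin was small: the log2 difference was 0.11 ± 0.09 for T-Co against NT-Co (limma adjusted p = 0.515), -0.16 ± 0.09 for T-TSU against T-Co (0.585) and -0.04 ± 0.09 for T-TSU against NT-Co (0.877).

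Ambp had the largest difference of the 5 genes in the drug comparison and the smallest p in the tumour comparison. It read 22212, 22206 and 24427 in NT-Co, 27497, 25820 and 28816 in the T-Co arrays, and 21227, 25250.5 and 21926 in T-TSU. The 3 T-Co arrays lay above all 6 others. The log2 difference was 0.25 ± 0.10 for T-Co against NT-Co, with a 95% interval of 0.04 to 0.47 and a limma p of 0.0242 that became 0.154 after adjustment. It was -0.27 ± 0.10 for T-TSU against T-Co (-0.48 to -0.05; adjusted p = 0.375) and -0.01 ± 0.10 for T-TSU against NT-Co (adjusted p = 0.970). The T-Co arrays enter the first and second of these differences with opposite signs, so the values are not independent.

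Afm ran the other way in the tumour comparison. Its brighter probe set, 1427440_a_at, read 11765, 11393 and 13174 in NT-Co, 11272, 9476 and 10848 in the T-Co arrays, and 11505, 10226 and 10868 in T-TSU. All T-Co arrays lay below all NT-Co arrays, by a log2 difference of -0.20 ± 0.11 (interval -0.44 to 0.03; limma adjusted p = 0.297). T-TSU lay between, at 0.05 ± 0.11 from T-Co (0.921) and -0.16 ± 0.11 from NT-Co (0.536). The second probe set, 1427561_a_at, read 6610, 7638 and 7410 in NT-Co, 6634, 5604 and 5721 in the T-Co arrays, and 6929, 5221 and 6258 in T-TSU. It had the same order of groups with overlapping spans, and differences of -0.27 ± 0.13 (0.236), 0.03 ± 0.13 (0.965) and -0.24 ± 0.13 (0.383).

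**Figure D2:**
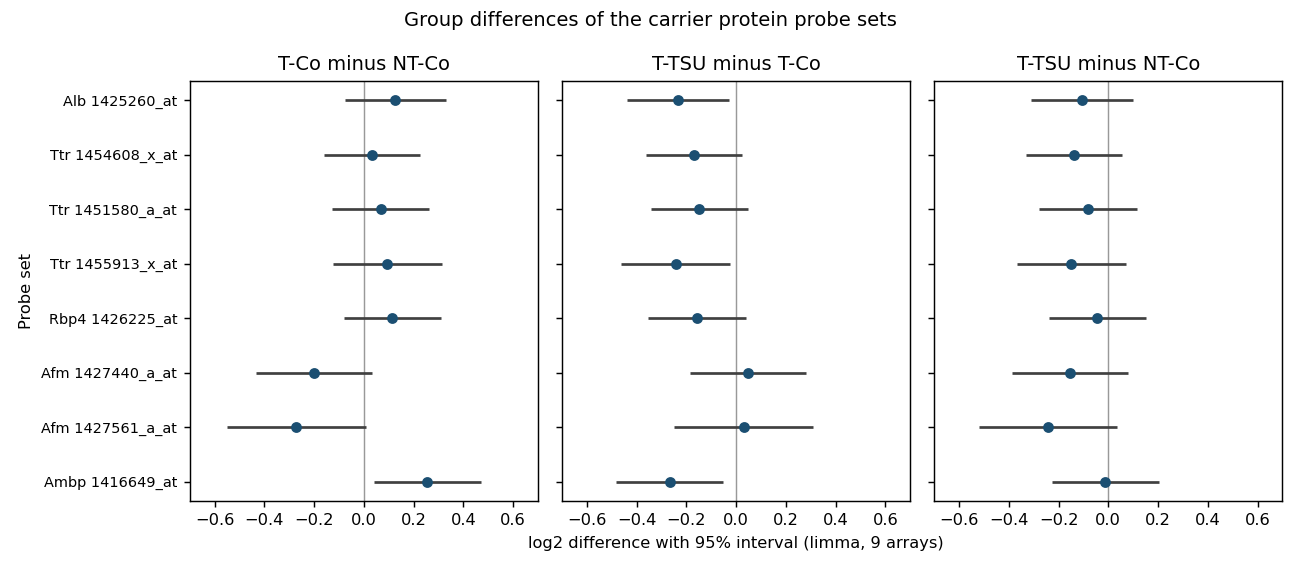
Log2 differences (horizontal axis) of the 8 carrier protein probe sets (vertical axis) in the 3 comparisons, with points at the limma estimate and bars for the 95% interval. In T-Co minus NT-Co 6 of 8 points lie above 0 and both Afm points below; in T-TSU minus T-Co 6 of 8 lie below 0; in T-TSU minus NT-Co all 8 lie below 0, between -0.24 and -0.01.

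As a list, the 8 probe sets had a median log2 difference of 0.08 for T-Co against NT-Co, beside 0.007 for all probe sets tested. Arrays of these groups did not overlap for 3 of the 8, 2 higher and 1 lower, against 26.9% of all probe sets (14.4% higher and 12.5% lower). For T-TSU against T-Co the median was -0.16, beside -0.009 for all, and 5 of 8 did not overlap, all lower. The share of all probe sets without overlap in that comparison was 14.1%, with 6.75% higher and 7.39% lower. For T-TSU against NT-Co the median was -0.12, beside -0.001 for all, and 1 of 8 did not overlap, on the lower side, against 24.2% of all (12.7% higher and 11.6% lower). The probe sets of 1 gene share a transcript, so the 8 are not independent.

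The lower readings in T-TSU than in T-Co were shared by the bright end of the arrays as a whole. The brightest 1% of probe sets, 227 of them with mean intensities from 13407 to 47819, include all carrier probe sets but the 2 of Afm. In this class 168 of 227 (74.0%) were lower in T-TSU than in T-Co, with a median log2 difference of -0.12, and for 76 (33.5%) the T-TSU arrays lay wholly below the T-Co arrays. The class median was 0.07 for T-Co against NT-Co and -0.06 for T-TSU against NT-Co. After quantile normalization the Alb difference was -0.014 for T-Co against NT-Co and -0.0049 for T-TSU against T-Co. The brightest Ttr probe set then read -0.074 and 0.024, and Rbp4 0.013 and 0.012. Ambp kept its sign, at 0.15 and -0.13, and the brighter Afm probe set read -0.21 and 0.10. So Alb turned sign in the tumour comparison, Rbp4 in the drug comparison and the brightest Ttr probe set in both with this scaling. The Ttr probe set 1455913_x_at kept its sign in the drug comparison, at -0.079.

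The brightest 1% also held calls, though none of them had a mean as bright, in any group, as Alb or the brightest Ttr probe set. The median residual SD within groups was 0.112 on the log2 scale in the brightest 1%, against 0.168, 0.199 and 0.366 in the successively dimmer classes. In T-Co against NT-Co, 16 of the 227 (7.05%) passed the test. Among them, chosen here after their values were seen, were the fetuin Ahsg (0.51 ± 0.10, adjusted p = 0.0135), the urea cycle enzyme Cps1 (0.46 ± 0.09, 0.00988) and the methionine cycle enzyme Mat1a (0.92 ± 0.16, 0.00574). Mt1, a metallothionein, rose by 3.45 ± 0.57 (0.00439), and Ugt2b1, a glucuronosyltransferase, fell by 1.27 ± 0.31 (0.0302). The class held 1 call in each of the other comparisons.

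**Figure D3:**
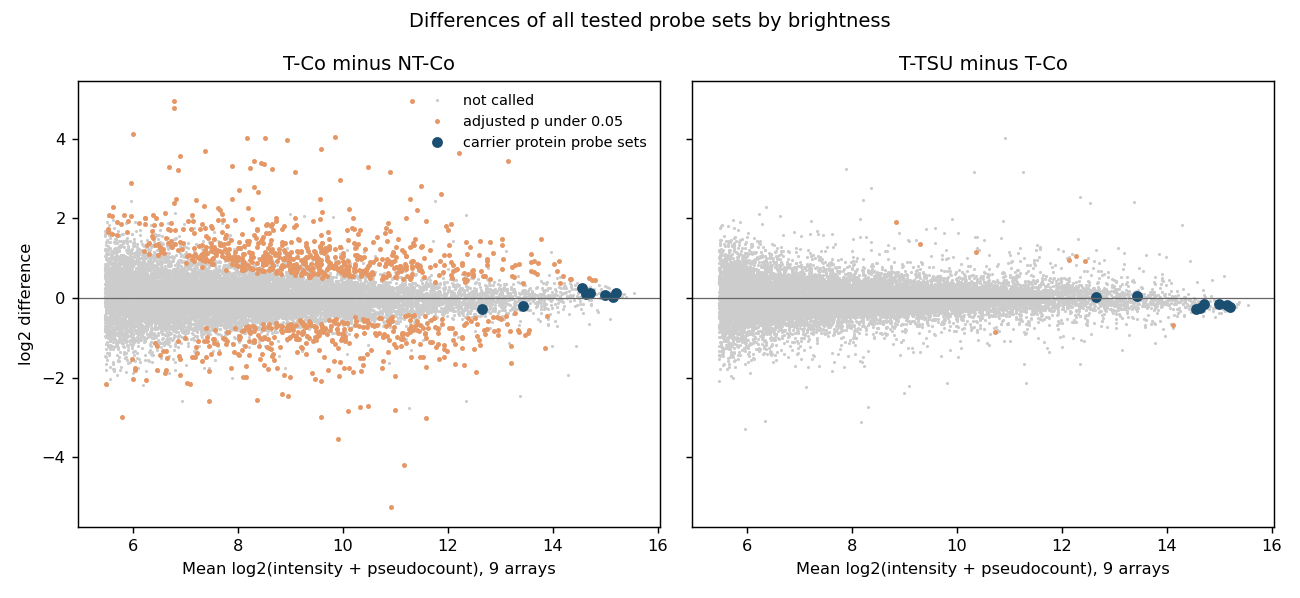
Log2 difference (vertical axis) against mean log2(intensity + 7.92) over the 9 arrays (horizontal axis) for the 15838 probe sets tested, in T-Co minus NT-Co and T-TSU minus T-Co; orange points have an adjusted p under 0.05 and blue points are the 8 carrier protein probe sets. The carrier probe sets lie at the bright end, with differences from -0.27 to 0.25, and some other probe sets there were called in the tumour comparison. The Afm probe sets lie below the brightest 1%, in the next 4%.

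The ratio of another member to Alb within an array is not altered by a constant factor applied to that array, although quantile normalization can alter it. The log2 ratio of the brighter Afm probe set to Alb was -1.65 ± 0.04 (SD, n = 3) in NT-Co, -1.98 ± 0.20 in the T-Co arrays and -1.70 ± 0.16 in T-TSU. The T-Co and NT-Co arrays did not overlap in this ratio, which differed by -0.33 (exact permutation p = 0.1, two-sided, the smallest that 3 against 3 can give). The second Afm probe set gave -0.40, again without overlap (exact permutation p = 0.1). After quantile normalization, an alternative chosen after seeing the data, these differences were -0.20 and -0.24. The Ttr probe set 1451580_a_at also separated T-Co from NT-Co without overlap, by -0.060 (exact permutation p = 0.1), whereas the other Ttr probe sets, Rbp4 and Ambp overlapped in that comparison. Ambp separated T-TSU from NT-Co, by 0.095 (exact permutation p = 0.1). Without overlap were thus 3 of 7 ratios in T-Co against NT-Co, 0 of 7 in T-TSU against T-Co and 1 of 7 for T-TSU relative to NT-Co. The same ratio to Alb did not overlap for 27.5%, 22.7% and 24% of all other probe sets tested. Over the 21 ratios compared, Benjamini-Hochberg adjusted values of the exact permutation test were 0.525 or above, so none passed.

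The profiles over the 9 arrays were compared by the root mean square difference of log2 values centred on their mean. As a scale, the root mean square of the gene's own centred profile was 0.122 for Alb, 0.0961 for Ttr, 0.0886 for Rbp4, 0.125 for Afm and 0.148 for Ambp. Profiles this flat lie close to any other flat profile. For each gene the closest probe sets were picked from all single-gene probe sets of other genes tested, and a link between them was not tested. Alb lay closest to Apoe (0.0326), an apolipoprotein, and Hpx (0.0340), the heme carrier hemopexin. The closest to Ttr were Rdh7 (0.0300), a retinol dehydrogenase family member, and Brk1 (0.0378). Rbp4 was closest to the apolipoproteins Apoc4 (0.0462) and Apoa1 (0.0472, by a probe set other than its brightest), Afm to Ebpl (0.0516) and Ngly1 (0.0569), and Ambp to Hax1 (0.0545) and Prkar1a (0.0618). Between members, Alb and the brightest Ttr probe set differed by 0.0549, Alb and Rbp4 by 0.0659, and Alb and the brighter Afm probe set by 0.189.

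The factors known on these promoters were listed with earlier results of these data known. Of 15 factors tested in T-Co against NT-Co, 5 rose and 2 fell, beside 4.16% higher and 2.38% lower of all probe sets tested. In T-TSU against NT-Co 5 rose and 0 fell, beside 2.49% higher and 1.36% lower. In T-TSU against T-Co 0 passed, beside 0.0505% of all. The same shares of all probe sets stand beside the calls of every list below. List medians here and below are given in the order T-Co minus NT-Co, T-TSU minus T-Co, then T-TSU minus NT-Co. For the factors they were -0.02, 0.29 and 0.40, beside 0.007, -0.009 and -0.001 for all probe sets tested. The calls of Tef, Cebpb, Cebpd and Foxa2 held under all 20 alternatives; without the intensity trend of the variance, of the other calls of related genes named below only those of Dbp and Thrsp in T-TSU against NT-Co held.

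Dbp, the activator named after the albumin D site, read 97.4, 68.1 and 81.1 in NT-Co. It read 1263, 2465 and 158 in T-Co, with replicate 13 far below the other two, and 4343, 1466 and 1652 in T-TSU. All arrays of both tumour groups lay above NT-Co. The log2 difference was 3.17 ± 0.74 for T-Co against NT-Co (limma adjusted p = 0.0256) and 4.62 ± 0.74 for T-TSU against NT-Co (0.00498). The T-Co call was lost without any 1 of NT-Co replicates 8, 10 and 11 or T-Co replicates 9 and 10 (adjusted p 0.0687 to 0.0823), and with a robust trend (0.126). The T-TSU call was lost with the robust trend (0.0603).

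Tef, a relative of Dbp that binds the same box, read 579, 478 and 559 in NT-Co, 1692, 2328 and 1421 in the T-Co arrays, and 2396, 2194 and 1988 in T-TSU. It rose by 1.71 ± 0.18 in T-Co (adjusted p = 0.000472) and by 2.01 ± 0.18 in T-TSU against NT-Co (0.000223). Hlf, the other relative, read 391, 307 and 386 in NT-Co, 504, 657 and 329 in the T-Co arrays, and 843, 884 and 624 in T-TSU. Only its rise in T-TSU against NT-Co passed (1.09 ± 0.24, 0.0239), and that call was lost without T-TSU replicate 2 or 12 or any NT-Co replicate (0.0624 to 0.103). Nfil3, the repressor at the D box, read 849, 983 and 577 in NT-Co, 359, 707 and 1377 in the T-Co arrays, and 426, 560 and 649 in T-TSU, with overlap between all groups. Transcripts of Dbp, Tef and Nfil3 follow the time of day in liver. Alb differed by 0.13 in T-Co and -0.11 in T-TSU against NT-Co, near the top of the intensity scale, where differences can be understated. A link between these factors and Alb was not tested.

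**Figure D4:**
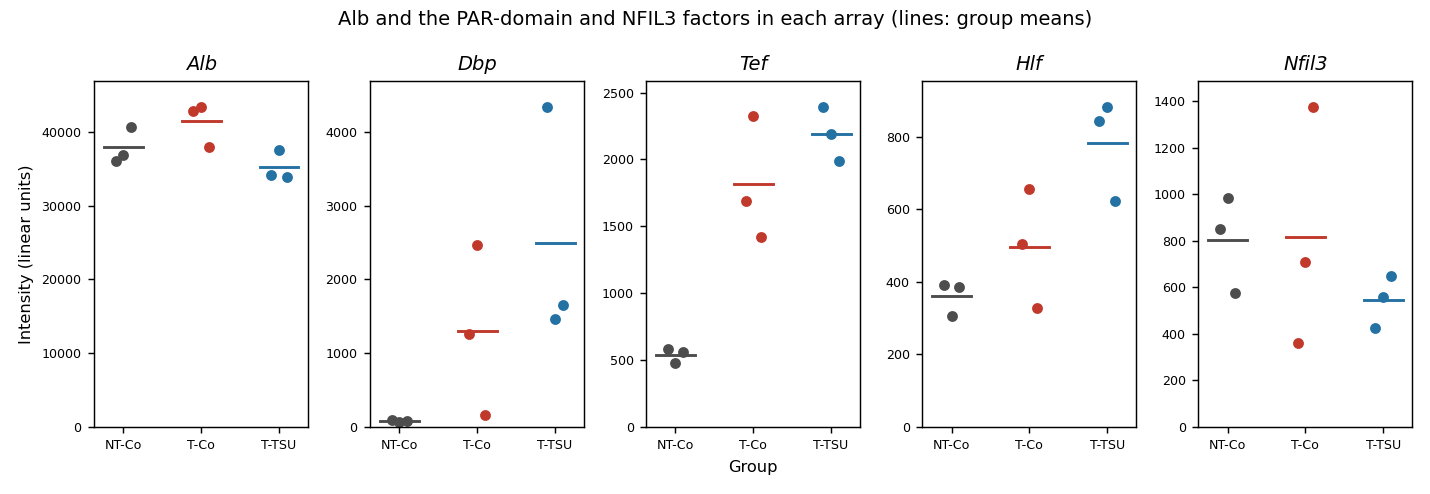
Deposited linear intensity (vertical axes, each panel on its own scale from 0) of Alb and of the D box factors Dbp, Tef, Hlf and Nfil3 in the 3 arrays of each group (horizontal axis), with lines at the group means. Dbp and Tef are higher in all 6 arrays of the tumour-bearing mice than in NT-Co, while the Alb arrays of NT-Co overlap both other groups.

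Among the C/EBP factors, Cebpb rose from 1120 ± 318 (SD, n = 3) in NT-Co to 5377 ± 2063 in T-Co (2.20 ± 0.29, limma adjusted p = 0.00126). It stood at 3643 ± 725 in T-TSU (1.71 ± 0.29 against NT-Co, 0.00617). Cebpd rose by 1.85 ± 0.30 in T-Co (0.00416), although the other probe set of the gene had the opposite sign. These 2 factors are known for the acute phase response; Cebpa, the form of the resting liver, read 3474 ± 341 in NT-Co, 3510 ± 1014 with the tumour and 4587 ± 273 with TSU68. Among the forkhead factors Foxa2 fell by 1.04 ± 0.19 in T-Co (0.00730) and Foxa1 fell by 1.42 ± 0.31 (0.0174). The Foxa1 call was lost without replicate 8 of NT-Co (0.0622) or replicate 9 of T-Co (0.0532). Foxa3, named in T-Co after its value was seen, rose by 0.74 ± 0.18 in T-Co (0.0316) and by 0.90 ± 0.18 in T-TSU against NT-Co (0.0171); the first call was lost without any 1 of the 6 NT-Co and T-Co arrays (0.0508 to 0.124) and the second without NT-Co replicate 8 or 11 or T-TSU replicate 12 or 14 (0.0576 to 0.0870).

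The partners of bikunin, the Ambp product, are the heavy chains of the inter-alpha-trypsin inhibitors. Of 4 tested, Itih3 rose in T-Co, from 16183 ± 1387 to 24041 ± 4765 (0.56 ± 0.13, limma adjusted p = 0.0274), and 0 passed in the other comparisons. That call was lost without NT-Co replicate 8 (0.112) or 11 (0.0825). It was also lost with quantile normalization, centring on the brightest 1%, no filter or only the groups compared in the fit (0.0571 to 0.0606). Itih4 (0.31 ± 0.11, 0.120) and Itih2 (0.23 ± 0.13, 0.328) did not pass. The list medians were 0.27, -0.34 and -0.07.

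In the handling of vitamin A, the cargo of Rbp4, 9 genes were tested and 1 passed. Dhrs3, which reduces retinaldehyde to retinol, fell from 2540 ± 369 in NT-Co to 1548 ± 246 in T-Co (-0.71 ± 0.18, limma adjusted p = 0.0322). In T-TSU it read 1553 ± 309 (-0.71 ± 0.18 against NT-Co, 0.0438). Both calls were lost without NT-Co replicate 8 or 11, the first also without T-Co replicate 13 and the second without T-Co replicate 9 or T-TSU replicate 12 or 14 (0.0531 to 0.172), and the second with centring on the brightest 1% (0.0525). Aldh1a1, a retinaldehyde dehydrogenase, had -0.41 ± 0.13 (0.0895) and Lrat, which esterifies retinol for storage, 0.88 ± 0.42 (0.249) in T-Co. The list medians were -0.11, -0.07 and -0.17.

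Of 5 thyroid hormone genes, Thrsp, a lipogenic gene induced by thyroid hormone and by feeding, rose by 1.40 ± 0.26 in T-Co (limma adjusted p = 0.00869) and by 2.35 ± 0.26 in T-TSU against NT-Co (0.000697). The deiodinase Dio1, which converts the hormone carried by transthyretin, read 825 ± 299 in NT-Co, 367 ± 228 in the T-Co arrays and 899 ± 329 in T-TSU (-1.34 ± 0.48 for T-Co against NT-Co, 0.123). The list medians were 0.42, 0.44 and 0.20.

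Fcgrt encodes the heavy chain of the neonatal Fc receptor, which recycles albumin and so prolongs its life in plasma. It read 1435, 1709 and 1468 in NT-Co, 1953, 2325.5 and 2105 in the T-Co arrays, and 2053, 2311 and 2457 in T-TSU. Both tumour groups lay above NT-Co in all arrays. The log2 difference was 0.47 ± 0.13 in T-Co, just short of the threshold (limma adjusted p = 0.0521), and 0.56 ± 0.13 in T-TSU against NT-Co (0.0327). The latter call was lost without NT-Co replicate 8 or 11 or T-TSU replicate 12 or 14 (0.107 to 0.136). Its light chain B2m had -0.15 ± 0.12 and -0.22 ± 0.12 and passed in neither, and the other probe set of B2m tested had the opposite sign in both. Of the 4 albumin and vitamin D genes tested Fcgrt alone was called, and the list medians were 0.09, -0.18 and -0.16.

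No gene of transferrin and iron uptake passed among 8 tested, and the list medians were -0.10, -0.10 and -0.22. Hfe, the iron-sensing partner of the transferrin receptors, had -0.46 ± 0.13 in T-Co (limma adjusted p = 0.0534), and Hamp, the iron hormone hepcidin, 0.57 ± 0.17 (0.0730). Of 10 other plasma carriers, Orm3, an orosomucoid, rose in T-Co from 469 ± 94.3 to 1250 ± 628 (1.31 ± 0.33, 0.0343) and read 470 ± 184 in T-TSU. That call was lost without any 1 of NT-Co replicates 8, 10 and 11, T-Co replicate 13 or T-TSU replicate 14 (0.0521 to 0.138), and with centring on the brightest 1% (0.0502). The list medians of these carriers were 0.19, -0.35 and -0.06, and 0 passed in the other comparisons.

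Of 8 other negative acute phase genes tested in T-Co against NT-Co, 2 rose and 0 fell. Of all probe sets tested, 4.16% were called higher and 2.38% lower there. Fetub rose (0.85 ± 0.16, limma adjusted p = 0.00963) from 7907 ± 331 in NT-Co to 14660.2 ± 4334 in the T-Co arrays. Ahsg rose from 23227 ± 1306 to 33027 ± 2513. Of the 8 differences 7 lay above 0, and that of Serpina6, the corticosteroid carrier, was -0.44 ± 0.42 (0.595). The Ahsg call was lost without NT-Co replicate 8 (0.0613) and without the filter (0.0519). The list medians were 0.14, -0.18 and 0.04. Positive acute phase genes, those that rise in inflammation, were above 0 in T-Co for 17 of 17 and called for 3: Serpina3n (0.82 ± 0.17, 0.0135), Lbp (1.10 ± 0.25, 0.0204) and Itih3. Without NT-Co replicate 11 Serpina3n (0.0615) and Lbp (0.0898) did not pass, nor did Lbp without replicate 8 of NT-Co (0.0659) or replicate 13 of T-Co (0.0579). In T-TSU against T-Co 17 of 17 were below 0 and 0 passed; the list medians were 0.56, -0.48 and -0.03.

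Markers of cell types were read as summed intensities and as calls. Of all probe sets tested, 4.16% were called higher and 2.38% lower in T-Co against NT-Co. The sums of T-Co and NT-Co overlapped for the Kupffer cell, endothelial, bile duct and lymphocyte markers. T-Co sums lay above NT-Co for hepatocyte and neutrophil markers, and below for stellate and fibroblast, erythroid and exocrine pancreas markers. T-TSU sums lay below T-Co for hepatocyte, Kupffer cell, endothelial, neutrophil and bile duct markers, and above for erythroid and exocrine pancreas markers. Arrays did not overlap for 26.9% of single probe sets in T-Co against NT-Co and 14.1% in T-TSU against T-Co. Such a share was not computed for sums. The summed intensity of 11 Kupffer cell and macrophage markers was 8966 to 12309 over NT-Co, 12128.5 to 17070.5 over T-Co and 5649 to 11757 over T-TSU, with 1 of 11 called higher in T-Co. For 5 neutrophil markers tested of 7 the sums were 538 to 787, 823 to 2122 and 530 to 754, with 0 called. For 8 endothelial markers they were 1884 to 2534, 2331 to 3736 and 1627 to 2312, with 1 called higher in T-Co. Of 9 hepatocyte markers 3 were called higher in T-Co and 0 lower. Lower calls in T-Co came from 1 of 7 stellate and fibroblast markers, 1 of 2 exocrine pancreas markers and the 1 erythroid marker tested. Over NT-Co, T-Co and T-TSU the stellate and fibroblast sums were 6741 to 7322, 5339 to 6188 and 5985 to 7129. The exocrine pancreas sums were 2090 to 2401, 667 to 981 and 1001 to 1777, and the erythroid marker read 1925 to 2355, 276 to 1016 and 1142 to 2120. The 2 bile duct and 2 lymphocyte markers tested gave 0 calls. The part of cell composition in the carrier gene values was not tested.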

How the data were processed

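Liver RNA was hybridised to 3' expression arrays after labelling of 5 µg of total RNA per the labels' protocols. The authors deposited linear intensities, 1 per probe set and array; the sources used here do not name the summarisation software, and a trimmed mean (2% off each end) of 500.3 on every array shows a common scaling. No columns were left unused. Groups came from the sample titles. The tests used log2(intensity + 7.92), with the 10th percentile of all values as pseudocount, so differences of dim genes are understated. Of 22690 probe sets, 64 controls and 6788 with a mean log2 value under the 30th percentile were left out. A group-means model on all 9 arrays (limma 3.58.1, R 4.3.3, trend, 6 residual degrees of freedom) gave two-sided p-values with Benjamini-Hochberg adjustment over 15838 probe sets (threshold 0.05), and was tested on simulated data. Errors of differences are SE. The number of arrays limits the precision.

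The members and the lists of related genes were chosen with earlier results of these data known. All member probe sets are named. Genes of the lists are read by their brightest probe set that passed the filter, while the comparison of profiles used all single-gene probe sets; of each list up to 6 called genes with the smallest p were named per comparison, and a selection of the 3 with the smallest p otherwise. Alternatives covered the pseudocount, filter, normalization, variance trend, array weights, groups fitted and each array left out.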

Additional observations from a re-analysis of the deposited data

How the results depend on the processing

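Under 20 alternatives each, and with the other probe sets standing for Ttr and Afm, 0 of 489 recomputed carrier protein values passed the threshold (lowest adjusted p 0.112), and 468 kept their direction. The 21 that turned had sizes of at most 0.074. With quantile normalization Alb (-0.014) and the Ttr probe sets 1451580_a_at (-0.041), 1454608_x_at (-0.074) and 1455913_x_at (-0.0036) turned in T-Co against NT-Co. Rbp4 (0.012), 1451580_a_at (0.048) and 1454608_x_at (0.024) turned in T-TSU against T-Co, and Ambp (0.026), Rbp4 (0.025) and 1451580_a_at (0.0071) turned relative to NT-Co. With arrays centred on the brightest 1%, 1454608_x_at (-0.018) turned in T-Co against NT-Co and Ambp (0.018) in T-TSU against NT-Co. Leaving out 1 array turned 1454608_x_at in T-Co against NT-Co (-0.0041 to 0.098) and both Afm probe sets in T-TSU against T-Co (1427440_a_at -0.027 to 0.098, 1427561_a_at -0.062 to 0.14). It also turned Ambp (-0.088 to 0.038) and Rbp4 (-0.10 to 0.010) in T-TSU against NT-Co.

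Counts over all probe sets moved more. Without the intensity trend 473 were called in T-Co against NT-Co, 0 in T-TSU against T-Co, 265 in T-TSU against NT-Co and 312 by the F test. In T-TSU against T-Co the count was 25 with a pseudocount of 32, 0 without the filter, 1 with quantile normalization, 5 with median centring, 27 with centring on the brightest 1%, 14 with a robust trend, 5 with array weights and 0 with only the groups compared. Array weights gave 1026 in T-TSU against NT-Co. Leaving out 1 array gave 440 to 1017 calls in T-Co against NT-Co, 0 to 59 calls in T-TSU against T-Co, 287 to 793 calls in T-TSU against NT-Co, 354 to 1009 calls by the F test. Of 1657 recomputed values of 83 named values of the related genes, 70 calls were lost, 12 gained and 1 value reversed (Ahsg, T-TSU against NT-Co, -0.022 to 0.11 with 1 array left out). The cause was not tested. No paired analysis was possible because the groups compared share fewer than 2 replicate numbers. The array signal of Alb and Ttr near the maximum limits what these differences can show.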
